A study of Canis lupus familiaris with 6 samples.

Results

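The comparison set 1 array of MDCK cells treated with TGFb and then 5-AZA against 2 arrays of untreated MDCK cells, which makes 3 of the 6 arrays of the series. Arrays were assigned to groups by their titles and treatment labels alone, with no measured value used. The comparison and its markers, however, were chosen with earlier results of these data known. MDCK (Madin-Darby canine kidney) cells are an established line of dog kidney epithelium and were grown in DMEM with serum. The 5-AZA cells had received transforming growth factor beta (TGFb) at 5 ng/ml for 30 days with regular subculture, and their label adds 5-AZA, 72 hours and "post-TGFb". For 5-AZA the labels give neither dose nor chemical form, nor whether TGFb was kept on during those hours. The untreated cells carried the epithelial description of the submitters and no treatment. For reference, 2 arrays of cells treated with TGFb for 30 days and 1 array taken 30 days after TGFb withdrawal were fitted along with them. Whether the arrays of 1 group stand for different cultures is not in the labels, so p-values measure the spread between these arrays, which may be technical. The contrast joins the effects of TGFb, of 5-AZA and of that culture's history, which cannot be told apart in it, and the TGFb arrays are therefore given beside it for the genes described most fully.

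TGFb binds receptor kinases that phosphorylate SMAD proteins, and in epithelial cells prolonged exposure can drive an epithelial-mesenchymal transition, in which cell junctions are lost and matrix, motility and contractile genes come on. The name 5-AZA usually stands for azacytidine or decitabine. Both are cytidine analogues that are built into nucleic acid and trap DNA methyltransferases, so that dividing cells lose DNA methylation. Genes of the germ line are textbook examples of loci held silent by promoter methylation in somatic cells.

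All 6 arrays had closely similar medians, from 4.97 to 5.01 on the log2 scale, and the background level of the arrays is unknown. Over all probe sets the 5-AZA array correlated with the untreated arrays at 0.950 and 0.952 and with the TGFb arrays at 0.968 and 0.970, beside 0.984 between the untreated arrays. The untreated arrays read 11.64 and 11.43 for the epithelial cadherin gene CDH1, and 10.44 and 10.39 for EPCAM, both far above the array medians. The kidney cadherin CDH16 read 4.58 and 5.05 and the kidney transcription factor PAX2 5.55 and 4.91 there, close to those medians, and without a background level their presence cannot be decided.

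Of the 5 markers, LAMA4, TAGLN, ACTA2 and CDKN1A were higher and CDH1 was lower in 5-AZA cells than in untreated cells, and all 5 were called. LAMA4, which encodes the laminin alpha 4 chain of basement membranes, read 10.66 in 5-AZA cells, 5.58 and 5.47 in TGFb cells, and 3.34 and 3.73 in untreated cells. The 5-AZA array thus stood far above every other array, and the TGFb arrays stood between it and the untreated ones. The log2 difference from untreated was 7.13 ± 0.23 (standard error of the limma fit, adjusted p = 0.0023), and that from TGFb was 5.14 ± 0.23 (adjusted p = 0.0044). TAGLN, encoding the actin-binding protein transgelin of smooth muscle, read 8.79 in 5-AZA cells, 6.97 and 5.76 in TGFb cells, and 4.47 and 4.25 in untreated cells. ACTA2, encoding smooth muscle alpha actin, read 10.28 in 5-AZA cells, 7.85 and 6.83 in TGFb cells, and 6.24 and 5.04 in untreated cells. Neither gene's groups overlapped, although both replicate pairs of ACTA2 and the TGFb pair of TAGLN lay more than 1 log2 unit apart. Both rose against untreated, TAGLN by 4.43 ± 0.51 (adjusted p = 0.0203) and ACTA2 by 4.64 ± 0.63 (adjusted p = 0.0307). Neither passed against TGFb, with differences of 2.43 ± 0.51 (95% interval 1.14 to 3.72, adjusted p = 0.129) and 2.94 ± 0.63 (1.34 to 4.54, adjusted p = 0.1356).

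CDKN1A, encoding the cyclin-dependent kinase inhibitor p21, read 9.52 in 5-AZA cells, 8.62 and 8.13 in TGFb cells, and 7.82 and 7.66 in untreated cells. It rose by 1.79 ± 0.26 against untreated (adjusted p = 0.0359) and differed from TGFb by 1.15 ± 0.26 (adjusted p = 0.1554). CDH1, encoding the adhesion molecule E-cadherin, read 6.98 in 5-AZA cells, 6.25 and 7.24 in TGFb cells, and 11.64 and 11.43 in untreated cells. The 5-AZA value lay between the TGFb values, and no array of either treatment came near the untreated level. CDH1 fell by 4.55 ± 0.43 against untreated (adjusted p = 0.0116), and its difference from TGFb was 0.24 ± 0.43 (95% interval −0.86 to 1.33). The calls on ACTA2 and CDKN1A were lost when any 1 of the 4 replicated arrays was left out, and those on TAGLN and CDH1 when either untreated array was. LAMA4 kept its call against untreated in each of these fits. The calls against TGFb, that of LAMA4 among them, were lost when either TGFb array was left out.

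**Figure D1:**
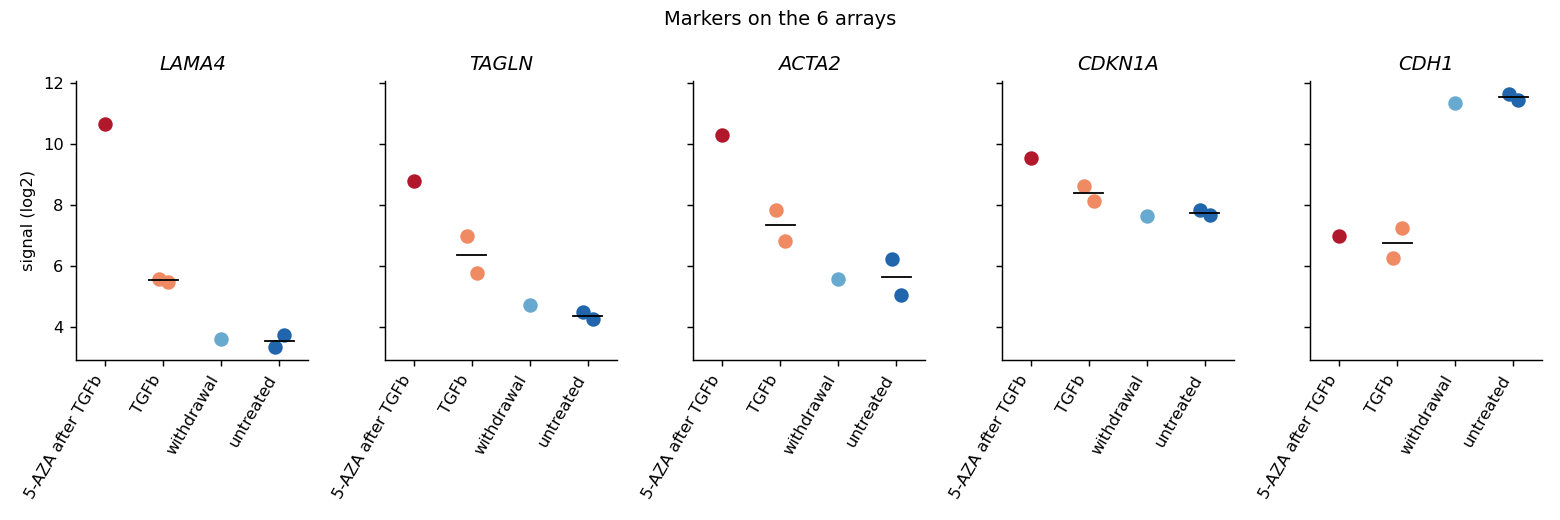
Signal (log2, vertical axis) of the 5 markers on each of the 6 arrays, grouped by treatment along the horizontal axis, with 1 point per array and a line at the mean of each pair. LAMA4 stands at 10.66 on the 5-AZA array against 3.34 and 3.73 on the untreated arrays, and CDH1 at 6.98 against 11.64 and 11.43.

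Over the whole array, 1178 of 32293 probe sets (3.65%) were called between the 5-AZA and untreated arrays at a Benjamini-Hochberg adjusted p under 0.05, 724 higher and 454 lower. Among 15947 named genes 483 rose (3.03%) and 271 fell (1.70%). The median log2 difference over all named genes was −0.02. The risen genes differed by a median of 2.17 and the fallen by a median of −1.84, and the smallest called difference was 1.04. With a single 5-AZA array the test borrowed its spread from the untreated and TGFb pairs, and the array was assumed to vary as they did. Of the 754 named calls, 231 and 243 remained when untreated replicate 1 or 2 was left out, and 292 without either TGFb array, in fits with 1 residual degree of freedom.

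**Figure D2:**
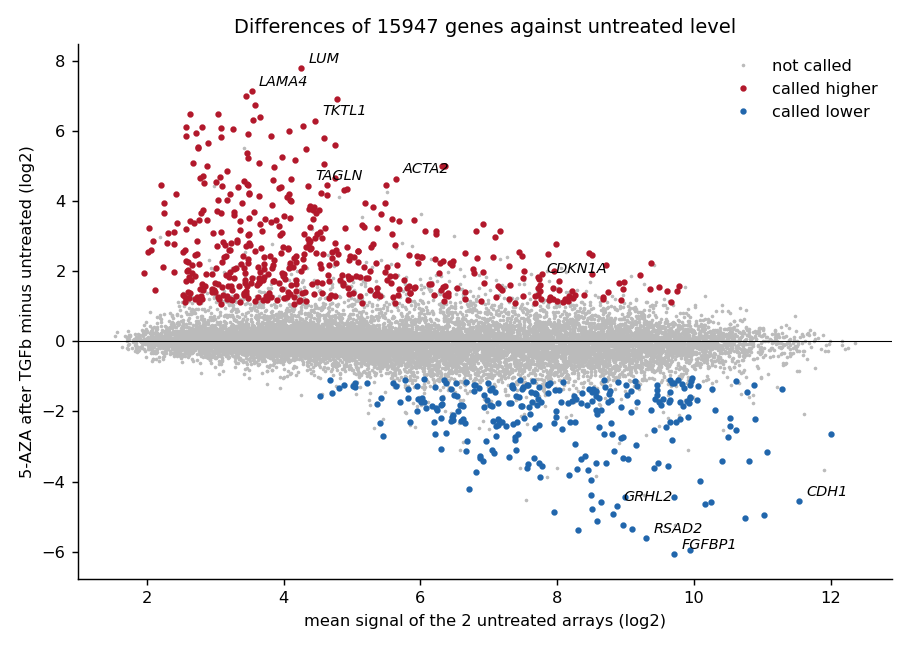
Log2 difference of the 5-AZA array from the untreated mean (vertical axis) against the untreated mean signal (log2, horizontal axis), 1 point per named gene, with called genes in colour. The differences of called genes reach up to 7.78 for LUM and down to −6.08 for FGFBP1. A gene at the low end of the signal range cannot lie far below 0, so part of the cloud's shape follows from that limit. The untreated mean lay under the median of all probe sets for 67.5% of the 483 risen genes. The share was 1.8% for the 271 fallen genes and 41.7% for all named genes.

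The 15 largest increases ran from 6.04 to 7.78 log2 units and split by what the TGFb arrays showed. LUM, encoding the matrix proteoglycan lumican, read 12.04 in 5-AZA cells, 11.93 and 11.96 in TGFb cells, and 4.72 and 3.79 in untreated cells. The related proteoglycan gene KERA read 10.43 in 5-AZA cells, 11.06 and 10.71 in TGFb cells, and 3.37 and 3.54 in untreated cells. SPARC, a collagen-binding matrix glycoprotein, and NEGR1, a neuronal growth regulator of the IgLON adhesion family, showed the same arrangement. For these genes the 5-AZA array sat with the TGFb arrays, with differences from TGFb between −0.45 (KERA) and 0.82 (NEGR1) that did not pass. RGS1, a regulator of G-protein signalling, read 9.10 in 5-AZA cells but 4.24 and 6.68 in TGFb cells, and its difference from TGFb of 3.64 ± 0.96 did not pass either (adjusted p = 0.2094). The RGS1 call against untreated was lost without either untreated array.

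The other 10 of the 15 were also called against the TGFb arrays, beside 1.15% of all named genes called higher there. That comparison holds the same 5-AZA array, on whose high values the 15 were picked, so it is no independent support. These calls against TGFb were lost when either TGFb array was left out. SFRP4, encoding a secreted Wnt antagonist, read 10.04 in 5-AZA cells, 3.43 and 3.29 in TGFb cells, and 3.94 and 3.35 in untreated cells. GALNT5, an enzyme that starts O-linked glycosylation, read 9.53 in 5-AZA cells, 3.61 and 2.94 in TGFb cells, and 3.08 and 3.01 in untreated cells. For both, only the 5-AZA array was high and the other groups overlapped. The transketolase-like gene TKTL1 rose by 6.30 ± 0.25, the collagen-modifying secreted protein gene CTHRC1 by 6.12 ± 0.18 and TFPI, an inhibitor of blood clotting, by 6.04 ± 0.29. FANK1, a gene known for testis expression in mouse, rose by 6.31 ± 0.47 and was no longer called without untreated replicate 1. The remaining members of the 10 were LAMA4, TGFBI, ASZ1 and ACTG2.

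None of the 15 largest decreases, from −6.08 to −4.59, was called against the TGFb arrays, beside 0.119% of all named genes called lower there. With so small a share, the absence of calls says little about these genes. FGFBP1, which encodes a carrier of fibroblast growth factors, read 3.63 in 5-AZA cells, 3.14 and 3.59 in TGFb cells, and 9.82 and 9.60 in untreated cells. SH3YL1, a phosphoinositide-binding protein gene, read 3.98 in 5-AZA cells, 3.18 and 4.67 in TGFb cells, and 9.97 and 9.92 in untreated cells. In these genes the 5-AZA array lay at the TGFb level and both lay apart from the untreated arrays. The antiviral gene RSAD2 fell by 5.61 ± 0.63 and the RNA helicase gene DDX60 by 5.37 ± 0.76. RASSF6, a Ras-association domain gene, fell by 5.36 ± 0.31, and RASEF, a Rab-like GTPase gene, by 5.23 ± 0.22. ANXA10, ST8SIA6, MAL2, IFI44L, SPTSSB, TMEM45B, GRHL2, UGT8 and KRT19 completed the 15. Their 5-AZA minus TGFb differences, over all 15, lay between −0.38 (UGT8) and 0.87 (KRT19). The calls on SH3YL1, MAL2 and KRT19 were lost without either untreated array, that on GRHL2 without untreated replicate 2, and those on RSAD2, DDX60 and ANXA10 without either TGFb array.

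**Figure D3:**
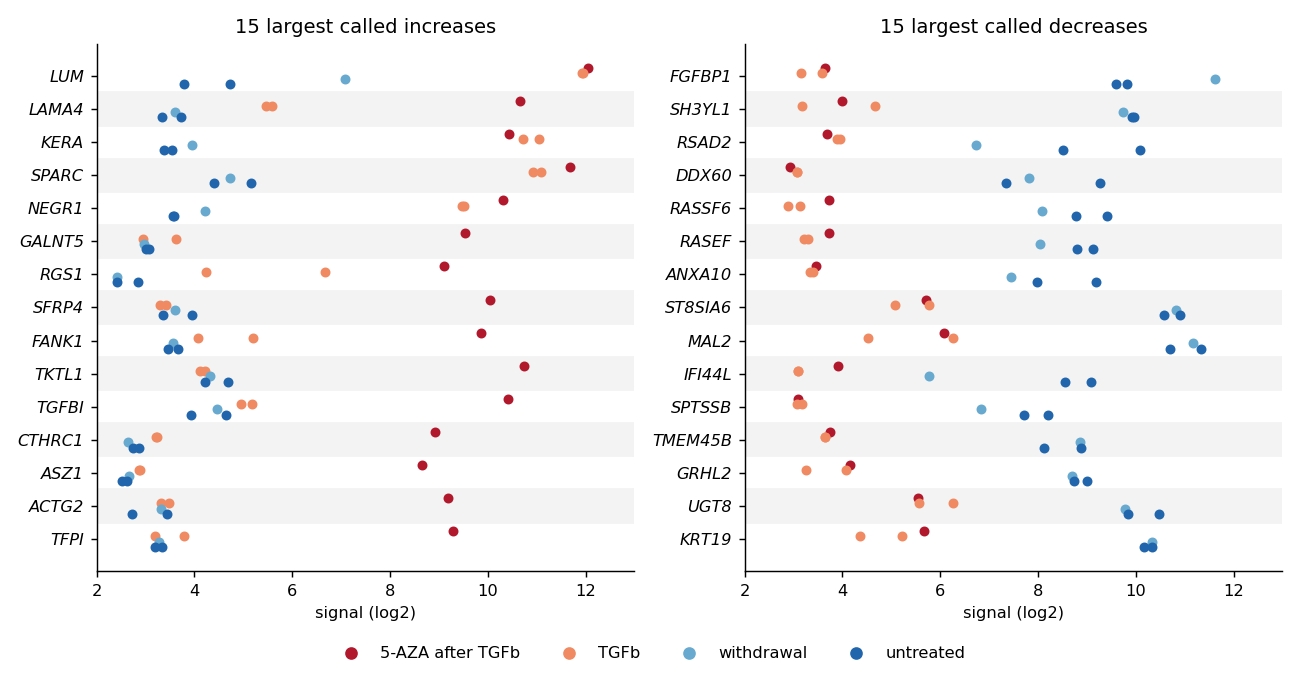
Signal (log2, horizontal axis) on every array for the 15 named genes with the largest called increase (left) and the 15 with the largest called decrease (right), 1 point per array, coloured by treatment. In the left panel 14 genes are higher on the 5-AZA array than on both TGFb arrays, and in the right panel the 5-AZA points lie with the TGFb points.

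Gene groups were followed through 25 lists that hold 685 symbols, of which 71 could not be measured for lack of an own probe set. The counts of each list stand beside 3.03% of all named genes called higher and 1.70% called lower. A list with a single call in a direction lies near these shares. Counts against TGFb stand beside 1.15% called higher and 0.119% called lower, so a list without a call there is near those shares. All calls against TGFb were lost when either TGFb array was left out. Among 19 genes of adherens junctions and desmosomes 3 fell and none rose (median log2 difference −0.73). These were CDH1, DSC2 (desmocollin 2, a desmosomal cadherin, −2.23 ± 0.20) and PERP (a desmosome-associated membrane protein, −1.77 ± 0.25). EPCAM, an epithelial adhesion molecule, read 7.90 in 5-AZA cells, 6.46 and 7.73 in TGFb cells, and 10.44 and 10.39 in untreated cells. Its difference of −2.52 ± 0.52 did not pass (adjusted p = 0.0795). None of the 3 calls against untreated remained when either untreated array was left out, and 2 did without either TGFb array. Against TGFb 1 member was called, the desmocollin gene DSC3, which was higher by 2.05 ± 0.23 (adjusted p = 0.0360). DSC3 read 9.90 in 5-AZA cells, 7.78 and 7.92 in TGFb cells, and 10.02 and 9.65 in untreated cells. Its 5-AZA value thus lay between the untreated values.

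Of 21 measured tight junction and polarity genes 5 fell and none rose, with a median of −0.68. PATJ, a scaffold of the Crumbs polarity complex, read 6.10 in 5-AZA cells, 6.58 and 6.95 in TGFb cells, and 10.25 and 9.94 in untreated cells. OCLN, encoding the tight junction protein occludin, read 5.71 in 5-AZA cells, 4.41 and 5.04 in TGFb cells, and 8.95 and 8.71 in untreated cells. The 5-AZA array lay below both TGFb arrays for PATJ and above both for OCLN, and far below the untreated arrays for each. PATJ fell by 4.00 ± 0.25 and OCLN by 3.12 ± 0.31. The claudin gene CLDN7 (−2.92 ± 0.34), the polarity gene PARD6B (−2.20 ± 0.36) and CGN, encoding the junction plaque protein cingulin (−2.16 ± 0.22), fell as well. No member was called between the 5-AZA and TGFb arrays. Only the PATJ call remained when either untreated array was left out, and 4 of the 5 remained without either TGFb array. PARD6B was also lost under quantile normalization (adjusted p = 0.0556).

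Epithelial regulators and keratins gave the lowest median of the 25 lists, −1.70, with 15 of 24 measured members called lower and all 24 below 0. GRHL2, a grainyhead transcription factor that drives epithelial genes, read 4.16 in 5-AZA cells, 3.25 and 4.06 in TGFb cells, and 8.73 and 9.0 in untreated cells. KRT19, a simple epithelial keratin, read 5.67 in 5-AZA cells, 4.36 and 5.23 in TGFb cells, and 10.33 and 10.17 in untreated cells. In both genes the 5-AZA array lay slightly above the TGFb arrays and more than 4 log2 units below the untreated ones. MAL2, a transcytosis protein gene, read 6.07 in 5-AZA cells, 4.53 and 6.27 in TGFb cells, and 10.70 and 11.34 in untreated cells. MAL2 fell by 4.95 ± 0.73, the small GTPase gene RAB25 by 3.86 ± 0.24, and the ETS factor gene EHF by 3.32 ± 0.43. The other 10 called members lay between −2.70 (ERBB3) and −1.26 (KRT18). None of the 24 was called against TGFb. Of the 15 calls, 4 and 3 remained without untreated replicate 1 and 2, and 10 without either TGFb array, where EHF was lost.

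Of 12 measured EMT transcription factors 4 rose, none fell and 8 did not pass, with a median of 0.05. TCF4, an E-protein, read 10.38 in 5-AZA cells, 9.51 and 9.59 in TGFb cells, and 4.84 and 4.34 in untreated cells. The E-cadherin repressor ZEB1 read 8.74 in 5-AZA cells, 8.79 and 8.50 in TGFb cells, and 4.21 and 3.08 in untreated cells. Both factors were on the TGFb level or slightly above it, clear of the untreated arrays. TCF4 rose by 5.79 ± 0.26, ZEB1 by 5.09 ± 0.48 and its relative ZEB2 by 4.47 ± 0.53. PRRX1, a homeobox factor of mesenchymal cells, read 8.14 in 5-AZA cells, 4.35 and 4.39 in TGFb cells, and 4.08 and 4.12 in untreated cells. PRRX1 was high on the 5-AZA array alone, with differences of 4.04 ± 0.17 from untreated (adjusted p = 0.0024) and 3.78 ± 0.17 from TGFb (adjusted p = 0.0044). SNAI2 read 10.94 in 5-AZA cells, 11.36 and 11 in TGFb cells, and 9.45 and 8.71 in untreated cells, a difference between 5-AZA and untreated of 1.86 ± 0.36 that did not pass (adjusted p = 0.067). TGFb against untreated, at 2.10 ± 0.29, was called for SNAI2 (adjusted p = 0.0482). The 5-AZA array differed from TGFb in SNAI2 by only −0.25 ± 0.36 (95% interval −1.16 to 0.67). Its SNAI2 difference from untreated passed when dimmer probe sets were dropped, with only named genes tested and under the replicate block. SNAI1 differed by −0.03 ± 0.25 (95% interval −0.66 to 0.60). ZEB2 was no longer called without either untreated array.

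Smooth muscle contractile genes had the highest median of the 25 lists, 1.07, and 9 of 24 measured members rose while none fell. The other 15 did not pass, and of the 24 members 19 lay above 0 and 5 below. Among those below were MYH11 (−0.18 ± 0.20), DES (−0.24 ± 0.19) and LMOD1 (−0.07 ± 0.21). ACTG2, encoding the gamma actin of smooth muscle, read 9.18 in 5-AZA cells, 3.32 and 3.48 in TGFb cells, and 2.73 and 3.45 in untreated cells. TPM2, encoding beta tropomyosin, read 9.64 in 5-AZA cells, 4.93 and 5.07 in TGFb cells, and 4.78 and 4.41 in untreated cells. CALD1, encoding the actin regulator caldesmon, read 11.31 in 5-AZA cells, 10.03 and 10.14 in TGFb cells, and 6.99 and 5.64 in untreated cells. ACTG2 and TPM2 were high only on the 5-AZA array, whereas CALD1 was already high under TGFb. The increases over untreated were 6.09 ± 0.33 for ACTG2, 5.05 ± 0.23 for TPM2 and 5.00 ± 0.55 for CALD1. Against TGFb, ACTG2 (5.78 ± 0.33), TPM2 (4.64 ± 0.23) and CNN1, the calponin gene (3.29), were called and CALD1 was not (1.23 ± 0.55, adjusted p = 0.4246). Of the 9 calls 5 remained when either untreated array was left out, and 4 when either TGFb array was, where CALD1 was lost. Actin and tropomyosin genes have near-identical relatives, which a probe set may not separate.

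In the list of mesenchymal surface and cytoskeleton genes 4 of 19 rose and none fell, with a median of 0.53 and 18 members above 0. DDR2, a collagen-binding receptor kinase, read 9.22 in 5-AZA cells, 7.60 and 7.54 in TGFb cells, and 5.75 and 6.39 in untreated cells. It rose by 3.15 ± 0.30, followed by the receptor kinase gene AXL (1.78 ± 0.25), the ectonucleotidase gene NT5E (1.66 ± 0.19) and the cadherin gene CDH6 (1.44 ± 0.21). The classic markers VIM, FN1 and CDH2 did not pass against untreated. VIM, encoding vimentin, read 12.08 in 5-AZA cells, 12.26 and 12.28 in TGFb cells, and 11.88 and 11.90 in untreated cells, a 5-AZA minus untreated difference of 0.19 ± 0.17 (95% interval −0.25 to 0.63). FN1, encoding fibronectin, read 12.20 in 5-AZA cells, 12.19 and 11.96 in TGFb cells, and 11.90 and 11.05 in untreated cells, 0.72 ± 0.38 above untreated (−0.25 to 1.69). CDH2, encoding N-cadherin, read 8.97 in 5-AZA cells, 9.94 and 9.61 in TGFb cells, and 8.37 and 8.53 in untreated cells. The TGFb arrays were the highest for CDH2 and were called against untreated (1.33 ± 0.18, adjusted p = 0.0472). The 5-AZA array differed in CDH2 by 0.52 ± 0.22 from untreated (−0.05 to 1.09) and by −0.80 ± 0.22 from TGFb (−1.37 to −0.23, adjusted p = 0.2249). Of the 4 calls only DDR2 remained without either untreated array, and none without either TGFb array.

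LAMA4 and NID2, encoding the basement membrane linker nidogen 2 (1.34 ± 0.19, adjusted p = 0.0329), rose among 20 measured laminin and basement membrane genes, and none fell. The list's median was −0.06, and DAG1, encoding dystroglycan, had its lowest difference at −0.89 ± 0.21 (adjusted p = 0.1092). NID2 read 6.69 in 5-AZA cells, 5.75 and 5.86 in TGFb cells, and 5.43 and 5.27 in untreated cells. The withdrawal array, at 7.72, stood above the 5-AZA array for NID2. The NID2 call was lost without any 1 of the 4 replicated arrays. Among 18 integrin genes ITGA5, the alpha chain of the fibronectin receptor, rose by 2.43 ± 0.40 (adjusted p = 0.0478), and none fell (median 0.16). ITGA5 read 7.40 in 5-AZA cells, 7.53 and 6.61 in TGFb cells, and 5.09 and 4.86 in untreated cells, so the 5-AZA value lay between the TGFb values. The ITGA5 call was lost without either untreated array and under robust moderation (adjusted p = 0.0525). The epithelial chains ITGB6 (−2.01 ± 0.43, adjusted p = 0.0866) and ITGB4 (−1.54 ± 0.27, adjusted p = 0.0548) did not pass. Both passed when dimmer probe sets were dropped and with only named genes tested, and ITGB4 also under the replicate block.

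Interstitial matrix genes followed, with 12 of 39 measured members higher, none lower, and a median of 0.71. SPARC read 11.68 in 5-AZA cells, 10.93 and 11.08 in TGFb cells, and 5.16 and 4.41 in untreated cells. DCN, encoding the proteoglycan decorin, read 8.90 in 5-AZA cells, 7.31 and 8.54 in TGFb cells, and 2.96 and 3.20 in untreated cells. TGFBI, a TGFb-induced matrix adhesion protein gene, read 10.42 in 5-AZA cells, 4.95 and 5.17 in TGFb cells, and 4.65 and 3.92 in untreated cells. TGFBI was high on the 5-AZA array alone, while SPARC and DCN were high on the TGFb arrays too. Over untreated, SPARC rose by 6.89 ± 0.34, DCN by 5.82 ± 0.51 and TGFBI by 6.13 ± 0.34, and the fibrillar collagen gene COL1A2 rose by 3.84 ± 0.19. Against TGFb 3 members were called, TGFBI (5.36 ± 0.34), the fibrillin gene FBN1 (4.02) and the proteoglycan gene BGN (3.35). COL1A2 differed from TGFb by −0.12 ± 0.19. Of the 12 calls, 8 to 10 remained when 1 replicated array was left out, and DCN was lost without either untreated array.

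Of 22 measured matrix proteases and inhibitors 3 rose and none fell (median 0.34), and all 3 calls remained whichever replicated array was left out. The gelatinase gene MMP2 read 7.17 in 5-AZA cells, 4.29 and 4.54 in TGFb cells, and 4.35 and 4.39 in untreated cells. The collagenase gene MMP1 read 7.70 in 5-AZA cells, 5.75 and 5.18 in TGFb cells, and 3.69 and 3.96 in untreated cells. MMP2 was high on the 5-AZA array alone, and for MMP1 the TGFb arrays stood between. MMP1 rose by 3.88 ± 0.30, MMP2 by 2.80 ± 0.20 and the metalloprotease gene ADAM19 by 2.54 ± 0.21. Against TGFb the calls were MMP2 (2.75 ± 0.20) and ADAM19 (1.76 ± 0.21).

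In the TGFb pathway list 5 of 34 measured members rose and none fell, with a median of 0.31. BAMBI, a decoy receptor that dampens TGFb signalling, read 10.08 in 5-AZA cells, 9.02 and 9.30 in TGFb cells, and 4.21 and 3.96 in untreated cells. The ligand gene INHBA, encoding the activin beta A chain, read 9.30 in 5-AZA cells, 8.78 and 8.86 in TGFb cells, and 6.13 and 6.34 in untreated cells. On the 5-AZA array both stood above the TGFb arrays and far above the untreated arrays. BAMBI rose by 6.0 ± 0.22, INHBA by 3.06 ± 0.19 and the ligand gene TGFB2 by 2.18 ± 0.20. The receptor genes TGFBR3 (1.45 ± 0.23) and ACVR1 (1.30 ± 0.20) were also called, but not without any 1 of the replicated arrays. TGFB2 was lost without untreated replicate 1. No member of the pathway list was called between 5-AZA and TGFb.

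**Figure D4:**
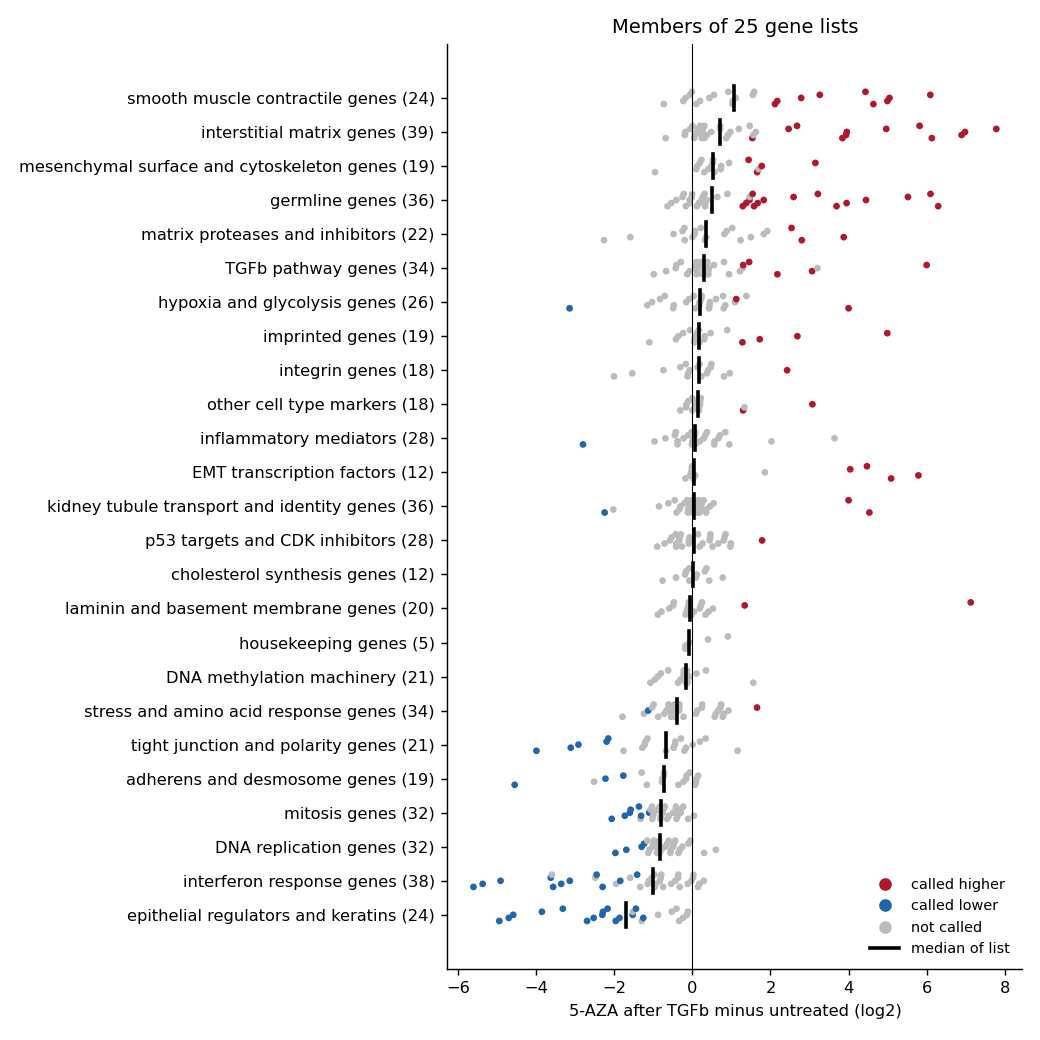
Log2 difference of the 5-AZA array from the untreated mean (horizontal axis) for every measured member of the 25 lists (rows, with the number measured), 1 point per gene and a bar at each list's median. Smooth muscle contractile genes have the highest median, 1.07, and epithelial regulators and keratins the lowest, −1.70.

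Cell cycle genes lay lower on the 5-AZA array. Of 32 measured DNA replication genes 4 fell, none rose and 30 lay below 0, with a median of −0.82. Of 32 measured mitosis genes 7 fell, none rose and 31 lay below 0, with a median of −0.81. CDC6, a factor that loads the replicative helicase, read 8.33 in 5-AZA cells, 10.47 and 10.51 in TGFb cells, and 10.09 and 10.53 in untreated cells. MKI67, encoding the proliferation antigen Ki-67, read 8.89 in 5-AZA cells, 10.24 and 10.07 in TGFb cells, and 10.26 and 10.27 in untreated cells. In both genes the TGFb and untreated arrays overlapped or nearly met, and the 5-AZA array alone was low. CDC6 fell by 1.97 ± 0.24, the transcription factor gene E2F8 by 1.69 ± 0.28, the helicase subunit gene MCM7 by 1.30 ± 0.17 and GINS4, another subunit of the replicative helicase, by 1.24 ± 0.21.

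Among mitosis genes the phosphatase gene CDC25B fell by 2.07 ± 0.24, the kinesin gene KIF2C by 1.73 ± 0.21 and the spindle checkpoint kinase gene TTK by 1.60 ± 0.18. CENPF, a kinetochore protein gene, fell by 1.58 ± 0.20 and MKI67 by 1.37 ± 0.18. Against the TGFb arrays 4 replication genes and 4 mitosis genes were called lower, against 0.119% of all named genes, and every one of the 32 in each list lay below 0 (medians −0.87 and −1.14). Against untreated no mitosis call and at most 1 replication call, that of CDC6 without untreated replicate 1, remained when a replicated array was left out. Under quantile normalization 2 replication and 5 mitosis genes were called, with medians of −0.76 and −0.78, and E2F8 (adjusted p = 0.053) and GINS4 (adjusted p = 0.0549) were among those lost.

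CDKN1A was the only one of 28 measured p53 targets and CDK inhibitors that was called, and the list's median was 0.04. MDM2, the p53 target that encodes its ubiquitin ligase, read 10.48 in 5-AZA cells, 9.55 and 9.81 in TGFb cells, and 10.14 and 9.89 in untreated cells. Its difference from untreated was 0.46 ± 0.22 (95% interval −0.10 to 1.03), so the 5-AZA array was the highest of these but did not pass. The p53 targets ZMAT3 (0.98 ± 0.38) and FAS (0.97 ± 0.27) did not pass either, nor did the CDK4/6 inhibitor gene CDKN2B (−0.71 ± 0.33).

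No member of the DNA methylation list was called among 21 measured, by limma with adjustment over all probe sets, while 6 had an unadjusted p under 0.05, and the median was −0.17. DNMT1, the maintenance methyltransferase, read 8.69 in 5-AZA cells, 9.63 and 9.63 in TGFb cells, and 9.74 and 9.56 in untreated cells. HELLS, a chromatin remodeller needed for maintenance of methylation, read 8.16 in 5-AZA cells, 8.93 and 9.15 in TGFb cells, and 9.12 and 9.36 in untreated cells. The 5-AZA array was the lowest of these arrays for both. DNMT1 differed from untreated by −0.96 ± 0.18 (95% interval −1.44 to −0.49, adjusted p = 0.0659) and HELLS by −1.07 ± 0.21 (−1.62 to −0.53, adjusted p = 0.0726). DNMT1 was called with an intensity trend (adjusted p = 0.04), and both were called when dimmer probe sets were dropped (adjusted p = 0.0391 and 0.0418). The demethylase gene TET1 read 6.27 in 5-AZA cells, 5.96 and 5.80 in TGFb cells, and 4.97 and 4.45 in untreated cells. TET1 differed from untreated by 1.56 ± 0.27 (adjusted p = 0.0526) and passed when identical rows were counted once (0.0485), under the replicate block (0.0328) and when dimmer probe sets were dropped (0.029). CDCA7, whose product recruits HELLS to chromatin, lay outside the naming rule and was picked after its values were seen. It read 2.51 in 5-AZA cells, 5.79 and 5.93 in TGFb cells, and 6.66 and 6.77 in untreated cells. CDCA7 fell by 4.20 ± 0.18 against untreated (adjusted p = 0.0026), and by 3.34 ± 0.18 against TGFb (adjusted p = 0.0055) it was the most lowered of the 19 named genes called lower there.

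Of 36 measured germline genes 15 rose and none fell, and with 21 members that did not pass the median was 0.50. SYCP3, a structural protein of the meiotic synaptonemal complex, read 8.27 in 5-AZA cells, 2.69 and 2.90 in TGFb cells, and 2.92 and 2.57 in untreated cells. ASZ1, a germ cell gene of the piRNA pathway, read 8.66 in 5-AZA cells, 2.88 and 2.89 in TGFb cells, and 2.62 and 2.52 in untreated cells. SPO11, which makes the DNA breaks that start meiotic recombination, read 6.66 in 5-AZA cells, 2.11 and 2.12 in TGFb cells, and 2.32 and 2.10 in untreated cells. In all 3 genes the 5-AZA array stood alone, and the TGFb, withdrawal and untreated arrays lay within 0.5 log2 units of each other. TKTL1 read 10.75 in 5-AZA cells, 4.12 and 4.22 in TGFb cells, and 4.69 and 4.22 in untreated cells. DAZL, an RNA-binding protein of germ cells, read 6.20 in 5-AZA cells, 2.16 and 2.36 in TGFb cells, and 2.24 and 2.26 in untreated cells.

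Over untreated, ASZ1 rose by 6.10 ± 0.18, SYCP3 by 5.52 ± 0.23, SPO11 by 4.45 ± 0.19 and DAZL by 3.95 ± 0.19. The other 10 called members rose by 1.29 (TEX15) to 3.69 (PIWIL2). The 15 called genes lay between 1.98 and 4.74 on the untreated arrays and between 1.92 and 4.33 on the withdrawal array. Against TGFb, 12 of the 36 were called higher, beside 1.15% of all named genes. Between TGFb and untreated only MEIOB, which takes part in meiotic recombination, was called (1.25), beside 0.966% of named genes called higher there. Of the 15 calls against untreated 8 remained in each of the fits that left out a replicated array, and ASZ1, SYCP3, SPO11, DAZL and TKTL1 kept theirs in all of them.

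**Figure D5:**
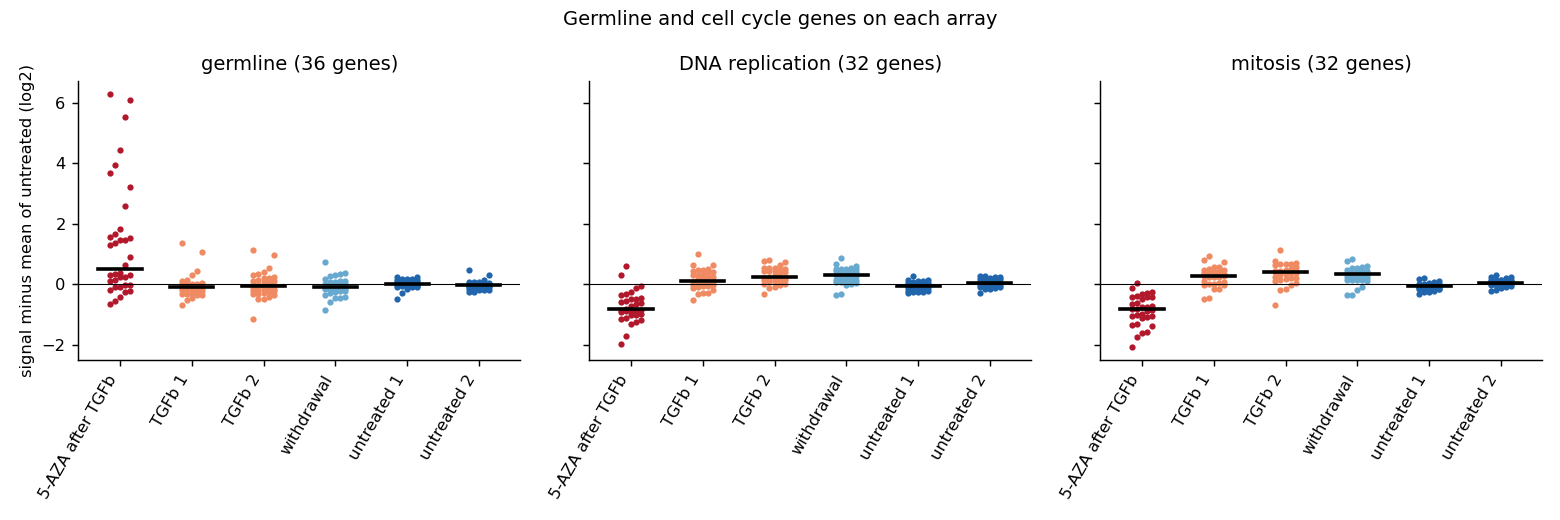
Signal minus the untreated mean (log2, vertical axis) of each measured member of the germline, DNA replication and mitosis lists on each of the 6 arrays (horizontal axis), 1 point per gene and a bar at each array's median. On the 5-AZA array germline genes reach 6.30 above the untreated mean, while the medians of the replication and mitosis genes lie at −0.82 and −0.81.

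Among 19 measured imprinted genes 4 rose and none fell (median 0.17). MEST, expressed from the paternal copy in human and mouse, read 11.35 in 5-AZA cells, 7.80 and 7.58 in TGFb cells, and 6.46 and 6.26 in untreated cells. PEG3, a zinc finger gene that is also paternally expressed in those species, read 7.02 in 5-AZA cells, 4.07 and 4.10 in TGFb cells, and 4.47 and 4.20 in untreated cells. Both stood clear of every other array in 5-AZA cells. MEST rose by 4.99 ± 0.21 and PEG3 by 2.69 ± 0.20, and both were called against TGFb (3.66 ± 0.21 and 2.94 ± 0.20). SNRPN (1.73 ± 0.27) and SGCE (1.28 ± 0.21) lost their calls without any 1 replicated array, and SGCE also under quantile normalization (adjusted p = 0.0587).

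Interferon response genes lay low, with 11 of 38 measured members called lower, none higher and a median of −1.01. RSAD2, encoding the antiviral enzyme viperin, read 3.69 in 5-AZA cells, 3.89 and 3.96 in TGFb cells, and 10.09 and 8.52 in untreated cells. IFI44L, an interferon-induced gene, read 3.91 in 5-AZA cells, 3.08 and 3.08 in TGFb cells, and 9.09 and 8.55 in untreated cells. The 5-AZA array lay slightly below the TGFb arrays for RSAD2 and above them for IFI44L, and far below both untreated arrays for each. IFI44L fell by 4.91 ± 0.27, PARP9, an interferon-induced ADP-ribosyltransferase family gene, by 3.63 ± 0.31, and RTP4, a chaperone gene, by 3.57 ± 0.26. OAS2, which senses viral double-stranded RNA, read 7.99 in 5-AZA cells, 4.35 and 4.35 in TGFb cells, and 10.11 and 9.56 in untreated cells. OAS2 thus took a middle place, lower than untreated by 1.85 ± 0.27 (adjusted p = 0.037) and higher than TGFb by 3.64 ± 0.27 (adjusted p = 0.0104). The withdrawal array also lay between for OAS2, at 6.05. The mean over the 38 members was 5.31 on the 5-AZA array and 4.99 and 5.06 on the TGFb arrays. It was 5.84 on the withdrawal array and 7.14 and 6.62 on the untreated arrays. Of the list 2 members were called higher against TGFb, OAS2 and the chemokine gene CXCL10 (2.73). The 11 calls against untreated came down to 5 without untreated replicate 1 and 9 without untreated replicate 2, and to 5 without either TGFb array. PARP9 was lost without either untreated array, and OAS2 was lost in all of these except the one without untreated replicate 2.

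Inflammatory mediators had 1 call among 28, CSF2, a myeloid growth factor gene, which fell by 2.80 ± 0.38. The chemokine gene CXCL8 read 9.66 in 5-AZA cells, 8.23 and 7.58 in TGFb cells, and 5.18 and 6.85 in untreated cells, a difference of 3.64 ± 0.71 that did not pass (adjusted p = 0.069). The untreated arrays lay far apart for it, and it passed when dimmer probe sets were dropped (adjusted p = 0.0363). CCL2 differed by 2.03 ± 0.66 (adjusted p = 0.2004). Of 34 stress and amino acid response genes TXNRD1, a thioredoxin reductase, rose by 1.65 ± 0.23 and SLC7A11, a cystine transporter, fell by 1.13 ± 0.18 (median −0.39). The calls on CSF2, TXNRD1 and SLC7A11 were lost without any 1 replicated array. EGR1, an immediate early gene, read 5.89 in 5-AZA cells, 8.50 and 6.21 in TGFb cells, and 8.82 and 6.54 in untreated cells, a difference from untreated of −1.79 ± 1.25.

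In the kidney tubule list 2 of 36 measured members rose and 1 fell (median 0.05). CA2, the cytosolic carbonic anhydrase of the tubule, read 7.54 in 5-AZA cells, 4.51 and 4.29 in TGFb cells, and 2.97 and 3.05 in untreated cells. It rose by 4.53 ± 0.20, and by 3.15 ± 0.20 against TGFb. CA12, a membrane carbonic anhydrase, rose by 4.00 ± 0.50 and differed from TGFb by 0.44 ± 0.50, and its call was lost without either TGFb array. TFCP2L1, a transcription factor of the distal nephron, fell by 2.25 ± 0.18 and was lost without untreated replicate 1. PAX2 differed by 0.35 ± 0.31 (95% interval −0.43 to 1.13). Of 26 hypoxia and glycolysis genes CA12 and the collagen prolyl hydroxylase gene P4HA1 (1.12 ± 0.17) rose and the glucose transporter gene SLC2A3 (−3.15 ± 0.34) fell. None of these 3 hypoxia list calls remained without either TGFb array. SLC2A3 was also lost without untreated replicate 2, and P4HA1 without either untreated array.

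Of 12 measured cholesterol synthesis genes none was called, with INSIG1 (0.78 ± 0.45), MSMO1 (−0.76 ± 0.20) and HMGCS1 (0.43 ± 0.24) the farthest from 0, and 1 had an unadjusted p under 0.05 by limma. The 5 measured housekeeping genes were not called either (1 at an unadjusted p under 0.05), with differences of −0.18 ± 0.18 for SDHA, 0.40 ± 0.30 for ACTB and 0.91 ± 0.18 for HPRT1. Among 18 measured markers of leukocytes, endothelium, nerve, skeletal muscle and liver 2 rose. PECAM1, an endothelial and leukocyte adhesion molecule, read 6.57 in 5-AZA cells, 3.24 and 3.26 in TGFb cells, and 3.62 and 3.38 in untreated cells, a difference of 3.07 ± 0.20. CD79A, a chain of the B cell receptor, differed by 1.30 ± 0.22 (adjusted p = 0.0485) and was lost without any 1 replicated array and under quantile normalization. The defining leukocyte gene PTPRC read 3.05 in 5-AZA cells, 2.84 and 2.97 in TGFb cells, and 2.83 and 2.95 in untreated cells, and the endothelial cadherin gene CDH5 4.74 in 5-AZA cells, 4.63 and 4.54 in TGFb cells, and 4.89 and 4.46 in untreated cells. The mean over the 18 markers was 4.26 on the 5-AZA array, 3.79 and 3.81 on the TGFb arrays, and 3.96 and 3.86 on the untreated arrays. No other endothelial marker measured (KDR, TEK, VWF, EMCN) was called, and SNAP25, a synaptic protein gene, differed by 1.33 ± 0.26 (adjusted p = 0.0668).

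The 3 comparisons share arrays, so their counts are not independent of each other. Of all probe sets 3.65% were called for 5-AZA against untreated, 1.04% for 5-AZA against TGFb and 1.64% for TGFb against untreated. Named genes called higher made up 3.03% of those tested for 5-AZA against untreated, 1.15% for 5-AZA against TGFb and 0.966% for TGFb against untreated. Those called lower made up 1.70%, 0.119% and 1.44%. For epithelial regulators and keratins the counts called lower were 15, 0 and 14 of 24, and for interferon genes 11, 0 and 16 of 38. For germline genes the counts called higher were 15, 12 and 1 of 36, for smooth muscle contractile genes 9, 3 and 3 of 24, and for interstitial matrix genes 12, 3 and 8 of 39. For DNA replication and mitosis genes the counts called lower were 4 and 7 against untreated, 4 and 4 against TGFb, and none of either between TGFb and untreated.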

How the data were processed

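Total RNA, labelled with biotin, was measured on 6 single-colour Affymetrix arrays, 1 of 5-AZA cells, 2 of TGFb cells, 1 after withdrawal and 2 of untreated cells. Each deposited value of a probe set was read as log2, from its range of 0.937 to 13.1, since no label states the base of the logarithm. Affymetrix Expression Console 1.2 was used, per the submitters' processing notes, and how it summarised probes or corrected background is not stated in them. The number of arrays limits the precision.

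Of 32293 probe sets 16545 had 1 symbol in the platform annotation, 370 several and 15378 none. For 15820 the entrez identifier matched RefSeq's genes of UU_Cfam_GSD_1.0, whose symbols were used. The brightest probe set by the mean of the 6 arrays stood for each of 15947 genes. Group means of all 6 arrays were fitted with limma 3.58.1 in R 4.3.3 (lmFit, eBayes, 2 residual and 3.10 prior degrees of freedom), and a probe set was called at a p-value under 0.05 after Benjamini-Hochberg adjustment across the array. With 1 array against 2, no permutation of the arrays can give a one-sided p under 0.333. Errors are standard errors of the fit, and differences are 5-AZA minus the other group. The script was tested on simulated data.

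The arrays compared follow from the labels, but this comparison, its markers, the 25 gene lists and the naming rule were chosen with earlier results of these data known. The rule named the 5 markers, the 15 largest called changes each way, up to 5 called members of each list (or its 3 largest differences) and a set of anchor genes. CDCA7, DSC3, the smooth muscle genes MYH11, DES and LMOD1, and the list members given only as the end of a range or as calls against TGFb were named after their values were seen. Lists are described by counts and medians, with no test. Alternatives were quantile normalization, median centring, an intensity trend, robust moderation, a signal filter, other sets of features, fewer arrays and a replicate block. Promoter sequences were not used here.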

Additional observations from a re-analysis of the deposited data

How the results depend on the processing

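For 5-AZA against untreated the 1178 calls became 1117 to 1281 under quantile normalization, median centring, an intensity trend, robust moderation, the signal filter, identical rows counted once and averaged probe sets, and 1736 with only named genes tested. The signal filter turned the split of the calls, with 509 higher and 711 lower in place of 724 and 454. It keeps only probe sets whose mean over the 6 arrays reaches the median of those means. The fit and the adjustment were redone on these alone, and what turned the split was not tested. With only the arrays of the 2 groups, and 1 residual degree of freedom, 435 were called, and 346 to 435 with 1 replicated array left out. For 5-AZA against TGFb the 337 calls became 110 under the signal filter, 682 with only named genes, 137 with only the arrays of the 2 groups, and 0 to 137 with 1 replicated array left out. The counts of 0 came without either TGFb array, where 3233 and 3467 probe sets had an unadjusted p under 0.05 by limma. For TGFb against untreated the 531 calls became 1001 under the signal filter, 1228 with only named genes, and 0 to 129 with 1 replicated array left out. Of the 121 named genes 94 were called, and none changed direction in a setting that gave it a value. The signal filter removed 24 of the 121, which have no value there. The numbers in the titles of the untreated and TGFb arrays pair them only by name: their deviations correlated at 0.0988 over probe sets, with 2 pairs. A replicate block on these numbers, with the unnumbered arrays at the midpoint, gave 1413, 368 and 712 calls in the 3 comparisons, lost SLC7A11 and P4HA1 and gained 6 named genes. The single 5-AZA array has no replicate, and the background of the arrays is unknown, so low values carry no limit of detection.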

Other observations

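Some genes called between the 5-AZA and untreated arrays were neighbours in the dog genome. Of 732 called genes among 15269 placed in the gene order of UU_Cfam_GSD_1.0, 119 lay next to another measured gene called the same way. They formed 42 runs of risen and 13 runs of fallen genes. The number of such neighbours to be met with calls in random order was not worked out, so clustering was not tested. The longest run held 4 risen genes, the small leucine-rich proteoglycan genes EPYC, KERA, LUM and DCN. EPYC, the least changed of them, read 5.72 in 5-AZA cells, 6.12 and 5.49 in TGFb cells, and 3.55 and 3.40 in untreated cells. Other runs of 3 joined CYTIP, ACVR1C and ACVR1, or TFPI, GULP1 and COL3A1, all risen, and ADGRL2, IFI44 and IFI44L, all fallen. Members of a gene family can share probe sequence as well as a place in the genome, and neither was tested. These genes were chosen after their values were seen.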
